A study of Homo sapiens with 4 samples.

Results

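The hypoxia-inducible factors (HIFs) and the enzymes that sense oxygen for them were followed through LSD1 knockdown in a prostate cancer cell line. The 10 genes were chosen by name, as the HIF alpha subunit genes HIF1A, EPAS1 and HIF3A, the partner subunit genes ARNT and ARNT2, the prolyl hydroxylase genes EGLN1, EGLN2 and EGLN3, the ubiquitin ligase gene VHL and the asparaginyl hydroxylase gene HIF1AN. They are 10 of 22852 gene symbols in the deposited count tables. RNA was sequenced from PC-3M-luc, a metastatic human prostate carcinoma line with a luciferase reporter, in 2 groups of 2 libraries each that the labels call biological replicates. In the LSD1 RNAi group the cells were transfected, with the lipid reagent Dharmafect 2, for RNA interference against LSD1 (KDM1A), a flavin-dependent histone demethylase, and in the control RNAi group with a control. Both groups were at passages 17 to 20, grew in Eagle's medium with serum and glutamine and were harvested 72 h after transfection. Both groups carry the reporter. All libraries come from a single cell line, the sources used here give neither the sequences of the RNAi reagents nor the oxygen level of the cultures, and p-values measure the spread between these libraries.

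HIF transcription factors pair an alpha subunit with an ARNT subunit and bind hypoxia response elements in genes of glycolysis, angiogenesis and pH control. When oxygen is present, the EGLN enzymes hydroxylate prolines of the alpha subunit, the VHL protein recognises the hydroxylated subunit and the ligase it belongs to marks it for degradation. HIF1AN hydroxylates an asparagine that otherwise lets HIF recruit coactivators. The oxygen response acts mainly on the alpha proteins, which RNA sequencing does not measure, so the values below are levels of messenger RNA only.

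Between 12041283 and 12832064 counts per library were assigned to genes, taking a single transcript row per gene, and the floor of 3 counts lay between 0.232 and 0.247 CPM, which are counts scaled to library size. KDM1A (NM_001009999) had 218 and 234 counts in LSD1 RNAi libraries, against 2920 and 2892 in control libraries, or 7.60% of control. Of 13252 genes tested, 36.1% passed an adjusted p of 0.05 (edgeR quasi-likelihood test), 18.2% higher and 17.9% lower, with a median log2 fold change of 0.0023 over all genes. The epithelial genes KRT8, KRT18, KRT19, EPCAM and CDH1, the mesenchymal filament gene VIM, which this line also expresses, and the prostate factor gene HOXB13 were present in every library. CDH1, with 389 and 433 counts in LSD1 RNAi libraries and 161 and 170 in control libraries, rose by 1.28 on the log2 scale, EPCAM by 0.50 and KRT8 by 0.47. VIM fell by 0.33, and KRT18 and KRT19 had log2 fold changes of -0.12 and -0.07 and did not pass. KLK3, KLK2 and FOLH1, markers of luminal prostate, had 0 counts in all 4 libraries, and TMPRSS2 had at most 4. The leukocyte genes PTPRC and CD3E and the endothelial gene CDH5 also had 0 counts in all 4 libraries. PECAM1, another endothelial gene, had 26 and 20 counts in LSD1 RNAi libraries and 37 and 38 in control libraries (log2 fold change -0.74, edgeR adjusted p = 0.0482). The fibroblast gene COL1A1 had 331 and 410 counts in LSD1 RNAi libraries and 415 and 365 in control libraries, while COL3A1 and PDGFRB had at most 11. CD68, which macrophages and also many other cells express, had 547 and 605 counts in LSD1 RNAi libraries, against 1077 and 1045 in control libraries.

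The promoters of the 3 genes whose transcripts passed the test, HIF1A, EPAS1 and EGLN3, and that of EGLN1, a prolyl hydroxylase gene known to be induced by hypoxia, are shown so that the core of the hypoxia response element can be looked for. Each is a window of 300 bases from the RefSeq table for GRCh38.p14, running from 250 bases before to 50 bases after an annotated start, 5′ to 3′ on the gene's strand. Capitals mark ACGTG and GCGTG on either strand, which read CACGT and CACGC on the other. The windows lie at chr14:61695263-61695562 on the plus strand for HIF1A, chr2:46297157-46297456 on the plus strand for EPAS1, chr14:33951025-33951324 on the minus strand for EGLN3 and chr1:231422238-231422537 on the minus strand for EGLN1.
HIF1A: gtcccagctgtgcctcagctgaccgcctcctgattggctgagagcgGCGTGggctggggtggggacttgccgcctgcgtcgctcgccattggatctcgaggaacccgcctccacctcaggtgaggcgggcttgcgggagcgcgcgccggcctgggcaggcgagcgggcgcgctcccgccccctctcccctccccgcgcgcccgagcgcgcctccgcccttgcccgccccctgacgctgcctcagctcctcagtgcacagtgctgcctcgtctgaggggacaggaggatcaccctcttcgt
EPAS1: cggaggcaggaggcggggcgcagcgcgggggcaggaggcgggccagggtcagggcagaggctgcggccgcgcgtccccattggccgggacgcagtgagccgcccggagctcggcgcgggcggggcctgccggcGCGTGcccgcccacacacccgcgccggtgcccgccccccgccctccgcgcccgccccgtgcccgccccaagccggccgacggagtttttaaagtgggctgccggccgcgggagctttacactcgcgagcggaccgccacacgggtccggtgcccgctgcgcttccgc
EGLN3: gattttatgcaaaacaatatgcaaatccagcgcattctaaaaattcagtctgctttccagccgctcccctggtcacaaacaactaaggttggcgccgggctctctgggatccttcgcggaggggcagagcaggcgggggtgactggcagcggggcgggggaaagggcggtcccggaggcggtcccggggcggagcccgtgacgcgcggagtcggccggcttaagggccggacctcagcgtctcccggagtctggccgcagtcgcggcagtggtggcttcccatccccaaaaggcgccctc
EGLN1: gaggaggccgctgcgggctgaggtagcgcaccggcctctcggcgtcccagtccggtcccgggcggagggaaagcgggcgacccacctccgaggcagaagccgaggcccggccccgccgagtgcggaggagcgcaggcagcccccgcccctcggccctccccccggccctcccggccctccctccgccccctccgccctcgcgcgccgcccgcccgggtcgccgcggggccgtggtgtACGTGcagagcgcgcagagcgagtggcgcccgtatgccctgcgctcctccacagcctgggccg
HIF1A and EPAS1 each held GCGTG at 1 place and no ACGTG, EGLN3 held neither, and EGLN1 held ACGTG at 1 place. The table had windows for 8 of the 10 genes, 12 in all, of which 2 held ACGTG and 3 held GCGTG. The other window with ACGTG was that of EGLN2, where the letters form CACGTG, an E-box that matches on both strands at overlapping positions. Among 35116 promoter windows of the same length, 21.4% held ACGTG and 36.5% held GCGTG on either strand. A match describes the letters in a window and does not show that a factor binds there.

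HIF1A was by far the most abundant of the 10 transcripts, and HIF3A and ARNT2 were barely detected. Per kilobase of the matching GENCODE transcript, HIF1A had 131 and 121 CPM per kb in LSD1 RNAi libraries and 98.2 and 109 in control libraries. VHL followed with 25.7 and 31.8 CPM per kb in LSD1 RNAi libraries and 32.0 and 31.5 in control libraries, then EGLN2 with 18.3 and 23.7 against 20.6 and 21.7. The levels of VHL and EGLN2 did not overlap. EPAS1 came next, with 9.57 and 9.50 CPM per kb in LSD1 RNAi libraries and 13.4 and 12.8 in control libraries, and then ARNT, with 8.68 and 7.75 against 8.91 and 9.01. EGLN3, EGLN1 and HIF1AN stood lowest of the detected genes, at 6.18 ± 0.791, 5.70 ± 0.616 and 4.52 ± 0.175 CPM per kb in LSD1 RNAi libraries and 7.75 ± 0.133, 5.14 ± 0.0166 and 3.97 ± 0.301 in control libraries (SD, n = 2 each). In LSD1 RNAi libraries EGLN3 and EGLN1 overlapped in level, while in control libraries these 3 genes kept apart. The order of the 8 detected genes by group mean was the same in both groups. It depends on the transcript lengths, such as 13011 nucleotides for HIF1AN, and these come from GENCODE release 29 and may differ from the models the authors counted on.

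Of the 10 genes, 8 passed the filter on low counts, and 3 of these changed, HIF1A higher and EPAS1 and EGLN3 lower. This is 37.5% of the 8, beside 36.1% of all genes tested. The groups did not overlap in CPM for 6 of the 8, beside 67.2% of all genes tested. Their median absolute log2 fold change was 0.17, against 0.23 over all genes tested. As a list, these genes changed about as often as genes in general, and all 3 changes were under 1.5-fold.

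**Figure D1:**
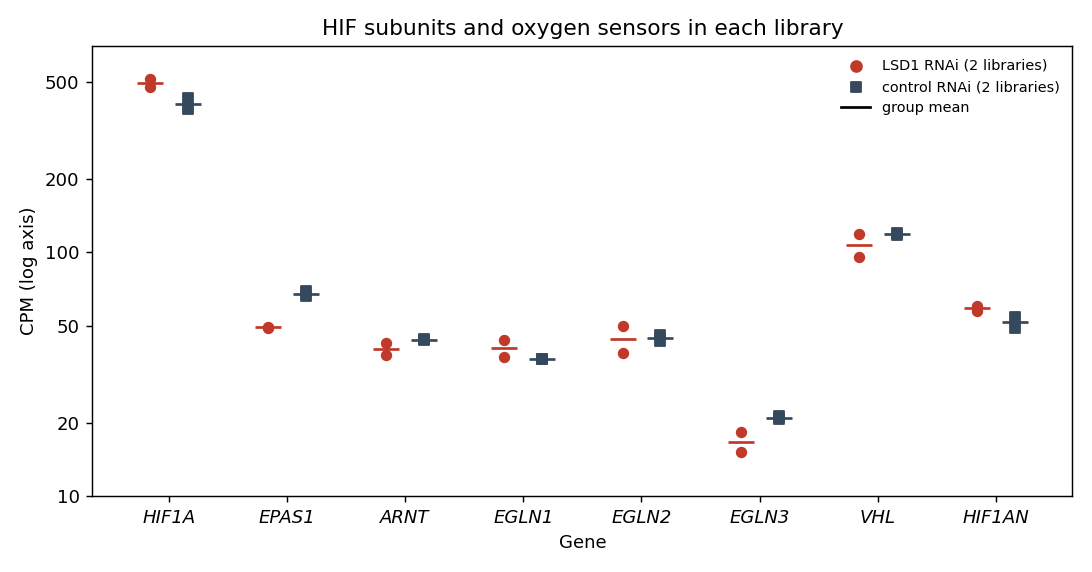
CPM on a log axis for the 8 detected genes in each library, with LSD1 RNAi libraries as circles left of the control libraries as squares and a line at each group mean. HIF1A sits between 475 and 513 CPM in LSD1 RNAi libraries and between 385 and 427 in control libraries, and EPAS1 at 49.1 and 49.4 against 66.0 and 69.2.

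The alpha subunit genes moved in opposite directions. HIF1A (NM_001530), the widely expressed alpha subunit, had 6272 and 6149 counts in LSD1 RNAi libraries, against 4782 and 5187 in control libraries. In CPM these were 513 and 475 after knockdown and 385 and 427 in control, so both knockdown libraries lay above both control libraries. HIF1A rose 1.22-fold, a log2 fold change of 0.28 ± 0.0834 (SE; edgeR adjusted p = 0.00751, 95% interval 0.11 to 0.45). Its level was higher than that of 97.7% of genes tested, and its change was larger in size than that of 57.8% of them. It did not pass when control replicate 1 was left out, at a log2 fold change of 0.21 (edgeR adjusted p = 0.121), or when LSD1 RNAi replicate 1 was left out, at 0.22 (edgeR adjusted p = 0.0974).

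EPAS1 (NM_001430), which encodes HIF-2 alpha and is best known from endothelium and clear cell kidney cancer, had 604 and 635 counts in LSD1 RNAi libraries, against 859 and 802 in control libraries. Its levels were 49.4 and 49.1 CPM after knockdown and 69.2 and 66.0 CPM in control, with no overlap. EPAS1 fell to 72.9% of control, or -0.46 ± 0.0906 on the log2 scale (SE; edgeR adjusted p = 0.00016, 95% interval -0.64 to -0.27). The call held under all 14 other settings tried, with log2 fold changes between -0.49 and -0.42. The size of its change exceeded that of 76.1% of genes tested, the highest rank among these genes. HIF3A, whose splice forms include inhibitors of the other alpha subunits, had 0 counts in both LSD1 RNAi libraries and 1 and 0 counts in control libraries. A sum of 0 counts over the LSD1 RNAi group allows up to 0.121 CPM, which covers counting error only, and no fold change is given.

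Because HIF1A was higher and EPAS1 lower, their ratio within a library, which needs no scaling between libraries, also differed. HIF1A had 10.4 and 9.68 counts per EPAS1 count in LSD1 RNAi libraries, against 5.57 and 6.47 in control libraries. The mean ratio was 10.0 ± 0.495 after knockdown and 6.02 ± 0.637 in control (SD, n = 2 each), and the groups did not overlap. An exact permutation test of 2 against 2 libraries, two-sided, gave p = 0.333, the smallest p this design allows. These ratios are of counts and are not corrected for transcript length.

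**Figure D2:**
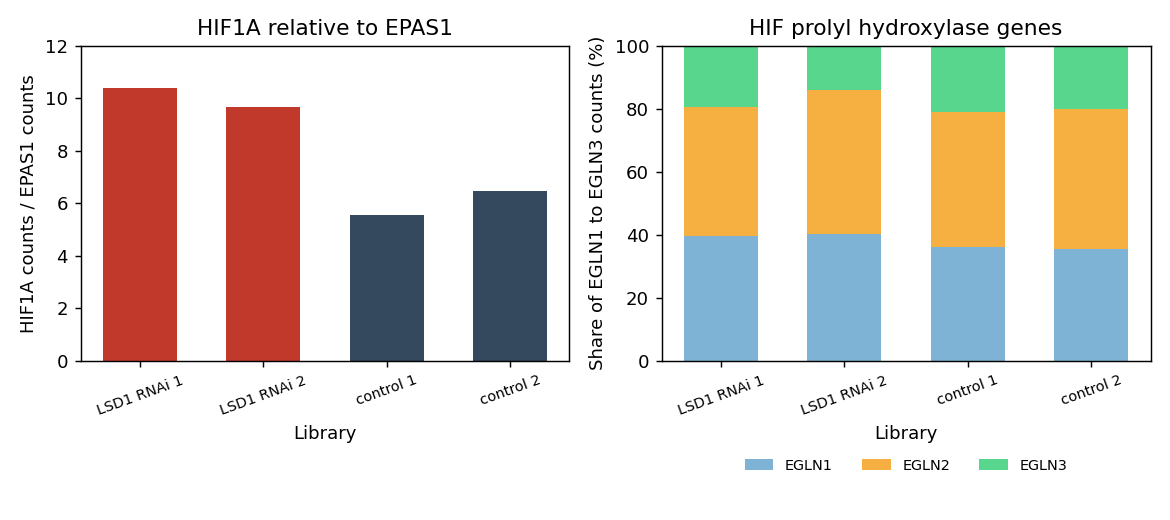
Left, HIF1A counts divided by EPAS1 counts in each library, from 9.68 to 10.4 after LSD1 RNAi and from 5.57 to 6.47 in control. Right, percent of the summed EGLN1, EGLN2 and EGLN3 counts that each gene takes, where EGLN1 takes 39.7% and 40.1% after LSD1 RNAi and 36.2% and 35.4% in control.

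The HIF1A value rests on rows that share reads. HIF1A had 3 RefSeq rows, and NM_181054 and NM_001243084 held 94.1% to 98.6% of the counts of NM_001530 in the 4 libraries. Tested on its own, each row rose, by 0.27 for NM_001530 and NM_181054 and by 0.29 for NM_001243084 (edgeR adjusted p of 0.00607, 0.00656 and 0.0033 over 23652 rows). HIF1A-AS2, an antisense RNA whose span overlaps 1220 nucleotides of the 3′ end of HIF1A on the opposite strand, was also higher. It had 712 and 683 counts in LSD1 RNAi libraries, against 571 and 467 in control libraries, or 0.39 ± 0.0997 on the log2 scale (SE; edgeR adjusted p = 0.0021). The counting is not stated to use strand, so reads of HIF1A and HIF1A-AS2 cannot be told apart where they overlap. HIF1A-AS2 counts amounted to 0.114 and 0.111 of HIF1A counts in LSD1 RNAi libraries and 0.119 and 0.0900 in control libraries, with overlap.

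Neither ARNT subunit gene passed the test. ARNT (NM_001668), the shared partner of HIF alpha subunits and of the aryl hydrocarbon receptor, had 518 and 490 counts in LSD1 RNAi libraries, against 541 and 535 in control libraries. In CPM these were 42.4 and 37.9 after knockdown and 43.6 and 44.0 in control. Its difference was -0.13 ± 0.0974 on the log2 scale (SE; edgeR adjusted p = 0.331), and the 95% interval of -0.33 to 0.07 leaves room for 79.8% to 105% of control. It was -0.22 without LSD1 RNAi replicate 1 and -0.05 without LSD1 RNAi replicate 2. The 3 ARNT rows shared at least 98.2% of their counts. ARNT2, the form best known from brain and kidney, had 1 and 0 counts in LSD1 RNAi libraries and 1 in each control library, and was not tested. HIF1A had 12.1 and 12.5 counts per ARNT count in LSD1 RNAi libraries, against 8.84 and 9.70 in control libraries, again with no overlap (exact permutation p = 0.333, two-sided, 2 against 2).

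Among the prolyl hydroxylase genes, EGLN3 was lower after knockdown and EGLN1 and EGLN2 did not pass the test. EGLN3 (NM_022073), which encodes PHD3 and is itself known to be induced by HIF, had 223 and 197 counts in LSD1 RNAi libraries, against 264 and 252 in control libraries. In CPM it had 18.3 and 15.2 after knockdown and 21.3 and 20.7 in control, with no overlap. EGLN3 fell to 79.6% of control, or -0.33 ± 0.126 on the log2 scale (SE; edgeR adjusted p = 0.0401, 95% interval -0.59 to -0.07). This call lay close to the threshold and was lost in 7 of 14 other settings, among them DESeq2 (DESeq2 adjusted p = 0.219). Of the 8 genes that passed the filter on low counts, DESeq2 called 2, HIF1A and EPAS1, beside 24.1% of all genes it gave an adjusted p. Without LSD1 RNAi replicate 2 the log2 fold change was -0.20 (edgeR adjusted p = 0.371), without control replicate 1 it was -0.31 (edgeR adjusted p = 0.121), and without control replicate 2 it was -0.35 (edgeR adjusted p = 0.072).

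EGLN1 (NM_022051), which encodes PHD2, the main oxygen sensor of most cells, had 456 and 563 counts in LSD1 RNAi libraries, against 454 and 442 in control libraries. Its levels were 37.3 and 43.5 CPM after knockdown and 36.6 and 36.4 CPM in control. Both knockdown libraries lay above both control libraries, but replicate 1 did so by less than 1 CPM. The change on the log2 scale was 0.15 ± 0.101 (SE; edgeR adjusted p = 0.263, 95% interval -0.06 to 0.36), with 0.25 without LSD1 RNAi replicate 1 and 0.03 without LSD1 RNAi replicate 2. EGLN2 (NM_080732), which encodes PHD1, had 470 and 644 counts in LSD1 RNAi libraries, against 537 and 554 in control libraries. The knockdown libraries lay on either side of both control libraries, at 38.5 and 49.8 CPM against 43.2 and 45.6 CPM. On the log2 scale the difference was -0.01 ± 0.105 (SE; edgeR adjusted p = 0.964), and the 95% interval runs from 85.7% to 115% of control. The direction differed between libraries, at 0.16 without LSD1 RNAi replicate 1 and -0.21 without LSD1 RNAi replicate 2.

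The EGLN2 value also depends on the transcript row. The second row, NM_053046, held 87.0% and 81.4% of the counts of NM_080732 in LSD1 RNAi libraries and 78.6% and 72.7% in control libraries, with no overlap. Tested on their own, NM_053046 gave a log2 fold change of 0.13 and NM_080732 one of -0.02 (edgeR adjusted p of 0.35 and 0.912 over 23652 rows). The readthrough gene RAB4B-EGLN2 shares 2012 nucleotides of exon with EGLN2 on the same strand. It had 434 and 535 counts in LSD1 RNAi libraries, against 456 and 417 in control libraries (log2 fold change 0.11, edgeR adjusted p = 0.413). RAB4B itself had 35 and 38 counts in LSD1 RNAi libraries and 56 and 38 in control libraries. Reads of EGLN2 and of the readthrough cannot be told apart in their shared exons.

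Of the summed EGLN1, EGLN2 and EGLN3 counts, EGLN1 took 39.7% and 40.1% in LSD1 RNAi libraries, against 36.2% and 35.4% in control libraries. EGLN3 took 19.4% and 14.03% in LSD1 RNAi libraries and 21.0% and 20.2% in control libraries. Neither share overlapped between the groups, while that of EGLN2 did, at 40.9% and 45.9% against 42.8% and 44.4%. For EGLN1 and EGLN3 an exact two-sided permutation test of 2 against 2 libraries gave p = 0.333, and for EGLN2 it gave p = 1. The shares are of counts, so longer transcripts weigh more.

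VHL and HIF1AN, which act on the alpha subunit after or beside the prolyl hydroxylases, did not pass the test. VHL (NM_000551), the substrate receptor of the ligase, had 1172 and 1536 counts in LSD1 RNAi libraries, against 1486 and 1430 in control libraries. In CPM it had 95.9 and 119 after knockdown and 120 and 118 in control, so LSD1 RNAi replicate 1 was low and replicate 2 lay between the control libraries. The change on the log2 scale was -0.14 ± 0.0909 (SE; edgeR adjusted p = 0.225, 95% interval -0.33 to 0.04). The value rests on the knockdown replicates, since it was -0.01 without LSD1 RNAi replicate 1 and -0.31 without LSD1 RNAi replicate 2 (edgeR adjusted p = 0.977 and 0.0176). The second VHL row, NM_198156, held 88.7% to 90.6% of the counts of the first in the 4 libraries.

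HIF1AN (NM_017902), the asparaginyl hydroxylase also called FIH, had 699 and 782 counts in LSD1 RNAi libraries, against 607 and 661 in control libraries. In CPM it had 57.2 and 60.4 after knockdown and 48.9 and 54.4 in control, with no overlap. Its difference was 0.19 ± 0.0933 on the log2 scale (SE; edgeR adjusted p = 0.114, 95% interval -0.0013 to 0.38), and 0.11 without control replicate 1. Its exons overlap those of NDUFB8 over 325 nucleotides on the opposite strand. NDUFB8, a respiratory chain gene, had 1217 and 1445 counts in LSD1 RNAi libraries, against 1160 and 1098 in control libraries. HIF1AN reads in that stretch cannot be separated from those of NDUFB8.

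**Figure D3:**
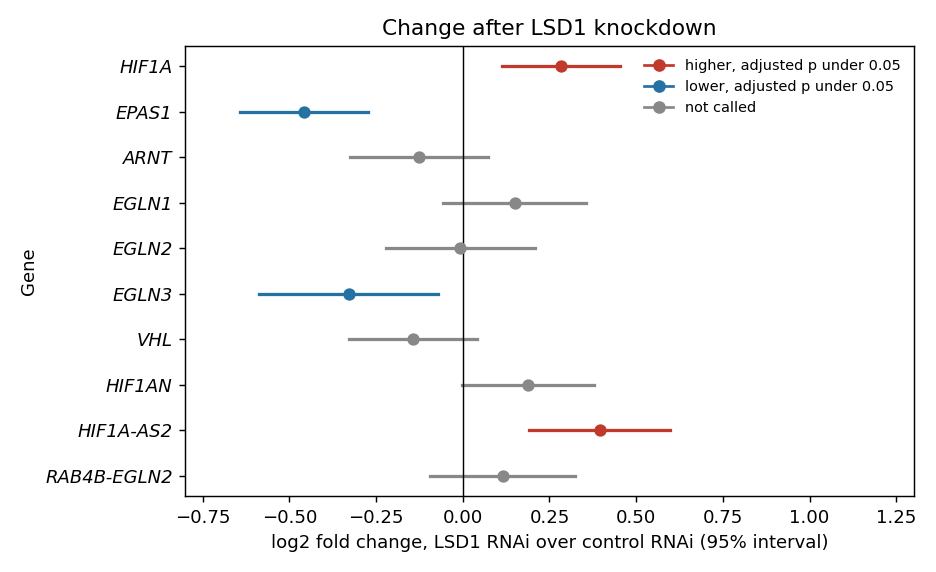
Log2 fold change of LSD1 RNAi over control RNAi with its 95% interval for the 8 tested genes and for HIF1A-AS2 and RAB4B-EGLN2, which share sequence with HIF1A and EGLN2. HIF1A and HIF1A-AS2 lie above 0 and EPAS1 and EGLN3 below 0, and the intervals of the other genes include 0.

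In the knockdown libraries replicate 2 was above replicate 1 by 1.29-fold for EGLN2, 1.24-fold for VHL and 1.17-fold for EGLN1, and below it by 1.20-fold for EGLN3 and 1.12-fold for ARNT. The control replicates of these 5 genes differed by at most 1.05-fold. For HIF1A, EPAS1 and HIF1AN the knockdown replicates differed by 1.08-fold, 1.01-fold and 1.06-fold. Their control replicates differed by more, at 1.11-fold, 1.05-fold and 1.11-fold.

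The GENCODE transcripts matched to these rows were searched for 7-mers that had been picked earlier in these data as candidate matches to the RNAi reagents, after fold changes were known. Of 6 such 7-mers, ACTTCGA occurred in HIF1A, EPAS1, EGLN1, VHL and ARNT2, TACTTCG in EGLN1, and CTAGAAG in HIF1A, HIF1AN and ARNT2. TAGAAGA occurred in ARNT, HIF1AN and ARNT2, GCGTACA and CGCGTAC in ARNT2 alone, and EGLN2 and EGLN3 held none of the 6. The share of all transcripts that hold each 7-mer is not given here, and the transcripts searched differ in length. Because the 7-mers were picked in these same data, a match is no independent support for a link to the reagents. Their part in the values of these genes was not tested.

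Among genes known as HIF targets, those that passed the test all fell. Of 36 target genes listed, 34 were tested, and 20 fell and 0 rose by edgeR adjusted p, with 14 past neither side, beside 17.9% of all genes lower and 18.2% higher. At an unadjusted p under 0.05, edgeR still gave 0 higher and 23 lower, and no share over all genes was computed at that threshold. DESeq2, with all 36 listed genes in its fit, called 0 higher and 21 lower by adjusted p. Over all genes it called 1460 higher and 1552 lower, of 12492 that it gave an adjusted p. With limma-voom, 0 were higher and 20 lower by adjusted p, beside 2416 and 2361 of 13252 genes. The median log2 fold change was -0.45, against 0.0023 over all genes, and 26 of the 34 were negative. ENO2, a glycolytic enolase, had 194 and 234 counts in LSD1 RNAi libraries and 673 and 672 in control libraries (log2 fold change -1.69, edgeR adjusted p = 9.22e-14). BNIP3, a mitophagy receptor, had 481 and 441 counts in LSD1 RNAi libraries and 1201 and 1345 in control libraries, ANGPTL4, a secreted lipase inhibitor, 109 and 113 against 327 and 304, and NDRG1 9324 and 9952 against 17856 and 19344. VEGFA, the angiogenic growth factor gene chosen after its value was seen, had a log2 fold change of -0.01 and did not pass. The fall of hypoxia genes in these data was known when the list was written, so the list is no independent support for it.

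**Figure D4:**
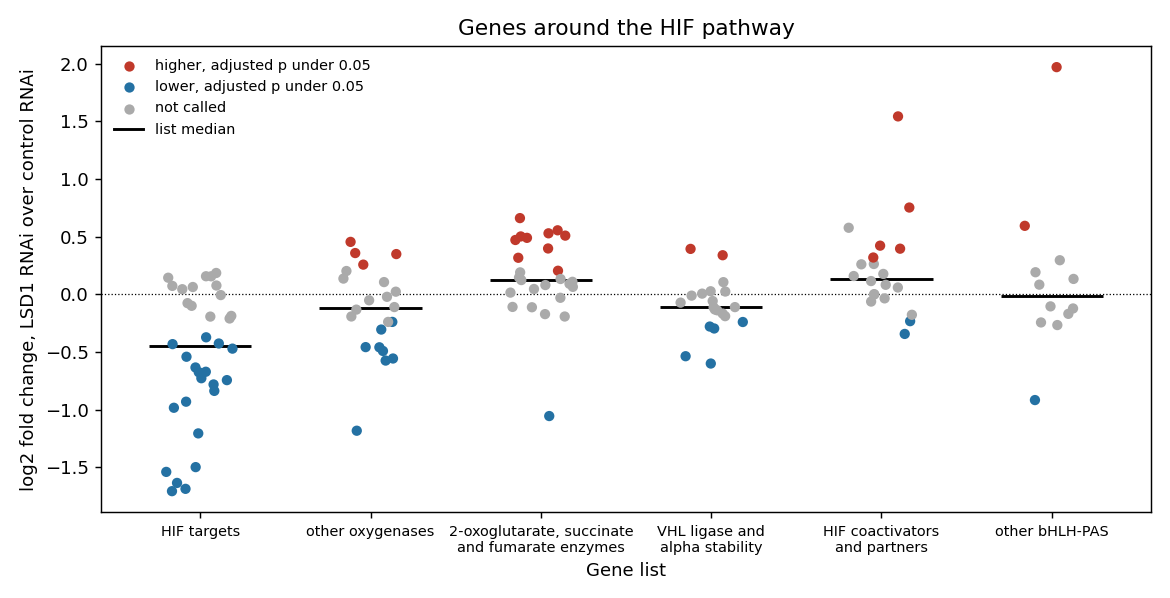
Log2 fold change of LSD1 RNAi over control RNAi for every tested gene of 6 lists around the HIF pathway, with red and blue points passing an adjusted p of 0.05 and a line at each list median. The HIF targets lie lowest, with a median of -0.45 and 20 of 34 genes called lower, and the other medians lie between -0.12 and 0.14.

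Other oxygenases that use 2-oxoglutarate, as the EGLN enzymes do, held changes in either direction. Among 22 such genes tested, 4 rose and 8 fell, 10 missed the threshold and the median was -0.12. The called share was 54.5%, beside 36.1% of all genes tested, where 18.2% were higher and 17.9% lower. The collagen prolyl hydroxylase gene P4HA2 had 99 and 121 counts in LSD1 RNAi libraries and 271 and 217 in control libraries (log2 fold change -1.18, edgeR adjusted p = 1.11e-07). P4HA1, another collagen prolyl hydroxylase gene, fell by 0.46 on the log2 scale, the collagen lysyl hydroxylase gene PLOD2 by 0.56 and the aspartyl hydroxylase gene ASPH by 0.49. P4HTM, a transmembrane prolyl hydroxylase gene related to the EGLN genes and chosen after its value was seen, rose 1.37-fold.

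Enzymes that make or use 2-oxoglutarate, succinate and fumarate, the cosubstrate of these hydroxylases and the metabolites that can inhibit them, held 10 genes that rose and 1 that fell among 26 tested. The other 15 missed the threshold, and the median was 0.13. The called share was 42.3%, beside 36.1% of all genes tested, where 18.2% were higher and 17.9% lower. SDHC, a membrane subunit of succinate dehydrogenase, was the gene that fell, with 395 and 348 counts in LSD1 RNAi libraries and 795 and 716 in control libraries (log2 fold change -1.06, edgeR adjusted p = 7.68e-10). OGDH, which consumes 2-oxoglutarate, rose 1.47-fold and the transaminase gene GOT1 1.58-fold. SDHA and SDHD, other succinate dehydrogenase subunits chosen after their values were seen, rose 1.25-fold and 1.32-fold. The subunit gene SDHB, also chosen after its value was seen, had a log2 fold change of 0.11 and did not pass.

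Of 20 genes of the VHL ligase and of HIF alpha stability tested, 5 fell and 2 rose, 13 missed the threshold and the median was -0.11. The called share of 35% was close to the 36.1% of all genes tested. CUL2, the cullin of the VHL ligase, fell to 105.8 ± 4.25 CPM in LSD1 RNAi libraries, against 124.9 ± 4.89 CPM in control libraries (SD, n = 2 each). The ligase subunit genes ELOB, ELOC and RBX1, chosen with CUL2 after their values were seen, had log2 fold changes of 0.03, -0.11 and 0.02 and did not pass. By the smallest adjusted p, the called genes were UBE2S, a ubiquitin-conjugating enzyme gene, lower by 0.54 on the log2 scale, WSB1, a ubiquitin ligase gene, lower by 0.60, OS9, higher 1.27-fold, and HIF1A-AS2. UBE2S had 726 and 791 counts in LSD1 RNAi libraries and 1080 and 1068 in control libraries.

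Of 20 HIF coactivator and partner genes tested, 5 rose and 2 fell, 13 missed the threshold and the median was 0.14. This is 35% called, again close to the 36.1% of all genes tested. HDAC3, a histone deacetylase gene, had 332 and 322 counts in LSD1 RNAi libraries and 101 and 118 in control libraries (log2 fold change 1.54, edgeR adjusted p = 1.12e-10). EP300, a coactivator acetyltransferase gene, rose 1.32-fold, CDK8, a Mediator kinase gene, 1.69-fold, and APEX1, a DNA repair and redox gene, 1.34-fold. CREBBP, the paralogue of EP300 chosen after its value was seen, had a log2 fold change of 0.0021 and did not pass.

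A list of other bHLH-PAS genes, the family of the HIF and ARNT subunits, also held the circadian PER genes. Of its 12 genes tested, 2 rose and 1 fell, 9 missed the threshold and the median was -0.01. The called share was 25%, beside 36.1% of all genes tested, and the 3 calls became 5, 4 higher and 1 lower, without control replicate 2. BMAL2, a circadian partner subunit gene related to ARNT, had 1096 and 1248 counts in LSD1 RNAi libraries and 2285 and 2035 in control libraries (log2 fold change -0.92, edgeR adjusted p = 3.3e-10). NPAS3, a neuronal factor gene, had 33 and 36 counts in LSD1 RNAi libraries and 7 and 10 in control libraries, and PER3, a circadian gene, rose 1.51-fold. CLOCK and the aryl hydrocarbon receptor gene AHR, chosen after their values were seen, had log2 fold changes of -0.10 and -0.17 and did not pass.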

How the data were processed

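Total RNA was sequenced from 2 LSD1 RNAi and 2 control RNAi libraries of PC-3M-luc cells. The deposited tables have no header, and their whole numbers with unequal totals were taken as raw counts per RefSeq transcript. Per the submitters' processing notes, TopHat2, HOMER, edgeR, DESeq 1.8.3 and hg19 were involved, without roles. How the libraries were made and counted, strand included, is not given in the sources used here. The series text speaks of a knockout, the sample labels of RNAi, and the samples are treated as knockdowns.

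Of 38767 rows, 37205 were named from a RefSeq gene table and 472 from GENCODE, and 1090 unmatched rows, with 1.38% to 1.40% of counts, were left out. The row with the highest mean stood for each symbol. Counts were scaled by TMM, filtered by filterByExpr at a minimum count of 10 and total of 15, and tested by the quasi-likelihood method in edgeR 4.0.16 (R 4.3.3). The model held group alone, and p-values were adjusted over 13252 genes by Benjamini-Hochberg. The common dispersion was 0.00355. Fold changes are LSD1 RNAi over control RNAi, and intervals are 95%. With 2 libraries per group, the spread behind each p-value is estimated partly from other genes. Alternatives were DESeq2 1.42.0, limma-voom with limma 3.58.1, other scalings, filters and row choices, a replicate block and leaving out each library. Values per kilobase used GENCODE release 29 lengths. From each list, up to 4 called genes with the smallest adjusted p were named, and others are marked; one called gene and some marker genes are not reported here. The genes, lists and tests were chosen with earlier results of these data known. SENP1 and HIF1A-AS1, named in a list, had no row in the tables analysed here.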

Additional observations from a re-analysis of the deposited data

How the results depend on the processing

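Over 14 alternative settings, the EPAS1 fall kept its call in all 14, the HIF1A rise in 12 and the EGLN3 fall in 7, and ARNT, EGLN1 and HIF1AN passed in none. VHL passed only without LSD1 RNAi replicate 2. The number of the 10 genes called was 3 and ranged from 1 to 3 when a library was left out, with 1 without control replicate 1, where EPAS1 alone passed. EGLN3 lost its call with no normalization factor, no filter, DESeq2, sums over rows and in 3 of the 4 fits with a library left out. The EGLN2 value of -0.01 turned to 0.0271 with no normalization factor and 0.0498 with sums over rows, and ranged from -0.21 to 0.16 with a library left out, and it passed in none of these. DESeq2 called 3012 genes, 1460 higher and 1552 lower, against 4787. The 60 called list genes ranged from 53 with DESeq2 to 69 with the replicate block, where calls over all genes numbered 3012 and 5271. Of the 6 lists the bHLH-PAS list alone moved by over 1.5 times. It had 5 calls in place of 3 with no normalization factor and with the replicate block. The replicate number as a block changed no call of the 10 genes and gave 5271 calls, with a correlation of same-numbered deviations of 0.07, below the 0.1 that would pair them. Keeping unmatched rows, chosen after seeing the data, changed no call of the 10 genes. With counts of 197 to 264, EGLN3 is the shallowest tested gene of the 10, and HIF3A and ARNT2 lie under the floor of 3 counts.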
